A study of Mus musculus with 12 samples.

Results

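This comparison sets alveolar macrophages taken 3 days after removal of 70% of the liver (3 arrays) against those of mice with an intact liver (3 arrays). These are 6 of the 12 arrays of the series, and the other 6 were taken 1 day and 7 days after the same operation. The 6 were chosen by the time point in the sample title, so no measured value entered the choice. On each array 22206 probe sets were tested out of 28846, leaving out 6640 control probe sets, and 19572 of those tested carry exactly 1 gene symbol. All mice were male and of the C57 Black strain, with no genetic change named. The labels call the samples biological replicates. They give no age of the mice, name no sham operation, and do not say whether a replicate came from 1 mouse or from several.

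Alveolar macrophages live in the air spaces of the lung, where they take up surfactant, dead cells and particles and renew themselves locally under GM-CSF and PPARγ. Removal of a large part of the liver sets the remaining hepatocytes to divide, and the operation also starts an acute phase response that reaches distant organs through the blood. Magnetic sorting on Siglec-F isolated the cells from lung, and eosinophils also carry this surface lectin. The values are log2 signals, on which a difference of 1 is a 2-fold difference.

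The defining genes of the cell type were bright in both groups. Siglecf read 8.69, 8.94 and 8.75 on the intact arrays and 8.38, 8.58 and 8.67 at day 3, a difference of -0.25 ± 0.20 (log2 difference ± SE, n = 3 per group). Pparg, the nuclear receptor that specifies the cells, differed by -0.17 ± 0.18, Mrc1, the mannose receptor, by 0.26 ± 0.21, and Chil3, a chitinase-like secreted protein, by 0.15 ± 0.18. Car4, Marco and Itgax, also markers of these cells, were lower in every alternative fit, as were Siglecf and Pparg. The differences of Car4, Marco and Itgax ran from -1.17 to -0.70, from -0.72 to -0.39 and from -0.69 to -0.10 over these fits. Those of Siglecf ran from -0.31 to -0.17 and those of Pparg from -0.26 to -0.11. Of the 28 alveolar macrophage markers measured, 26 had a group mean above background, 9 were higher and 19 lower at day 3, and the median difference was -0.24, or -0.14 without day 3 replicate 1 and -0.15 without intact replicate 1. The summed signal of the 28 ran from 19283.9 to 23050.9 on the intact arrays and from 19531.5 to 21131.3 at day 3. Background here is the highest of the arrays' 95th percentiles of the intron control probe sets, 5.69 on the log2 scale. Genes of other lung cells were on the arrays too. Sftpc, the surfactant protein of type 2 alveolar cells, read 10.81, 11.33 and 11.20 on the intact arrays, and Scgb1a1, the secretoglobin of club cells, read 10.05, 10.61 and 11.37. In RNA from a pool of cells, fewer cells of a type and less RNA per cell cannot be told apart.

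1 of the 3 day 3 arrays stood apart from the others. How well exon controls stood out from intron controls, as the area under the curve, was 0.832 on day 3 replicate 1, 0.869 on both other day 3 arrays and 0.878 to 0.888 on the intact arrays. A gene's value on this array differed from the mean of its group's other arrays with an SD of 0.703 over genes, against 0.465 and 0.359 for the other day 3 arrays and at most 0.303 for an intact array. The labelling control dap read 6.88 on it and at most 2.40 on the intact arrays. The median SD within the day 3 group was 0.315 over genes above background, and within the intact group 0.149. The comparison is therefore also given without the 3 arrays of the series with the weakest separation, of which it is 1. That fit holds 9 arrays.

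At day 3 most neutrophil markers lay above the intact level, as did Saa3, Cd63 and Mmp12, and most markers of connective tissue, vessel wall, epithelium, T and NK cells and dendritic cells lay below it. The replication-dependent histone genes were low as a family. At the level of single genes the test was passed by 1 probe set. Col3a1, a chain of collagen III made by fibroblasts, read 4.34, 5.23 and 5.19 on the intact arrays and 2.73, 2.26 and 2.65 at day 3. It fell by 2.37 on the log2 scale (SE 0.25, limma adjusted p = 0.0135), and its groups lay far apart although all 6 values were below the background limit. The call was lost with only the day 3 and intact arrays in the fit (adjusted p = 0.0669). It was also lost on leaving out intact replicate 2 (0.15) or 3 (0.157), and on leaving out day 3 replicate 2 (0.141) or 3 (0.103). The adjusted p ran from 0.000208 to 0.157 over 22 alternatives, and 16 of them kept the call.

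Over all 22206 probe sets, 1 was called at an adjusted p under 0.05, which is 0.0045%. At an unadjusted p under 0.05 there were 435 higher (1.96%) and 555 lower (2.5%). The 3 day 3 arrays lay wholly above the 3 intact arrays for 1597 probe sets (7.19%) and wholly below them for 1483 (6.68%). More than 2-fold differences numbered 66 higher and 185 lower. Of these, 35 higher and 61 lower also had groups apart and a higher mean above background. A probe set passing alone needed a t of 8.24, which at the median SE of genes above background, 0.266, is a difference of 2.20 or 4.58-fold. With 3 arrays against 3, an exact permutation test of a single gene cannot go below a two-sided p of 0.1. The p-values below come from limma, measure the spread between these arrays, and are unadjusted unless called adjusted.

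**Figure D1:**
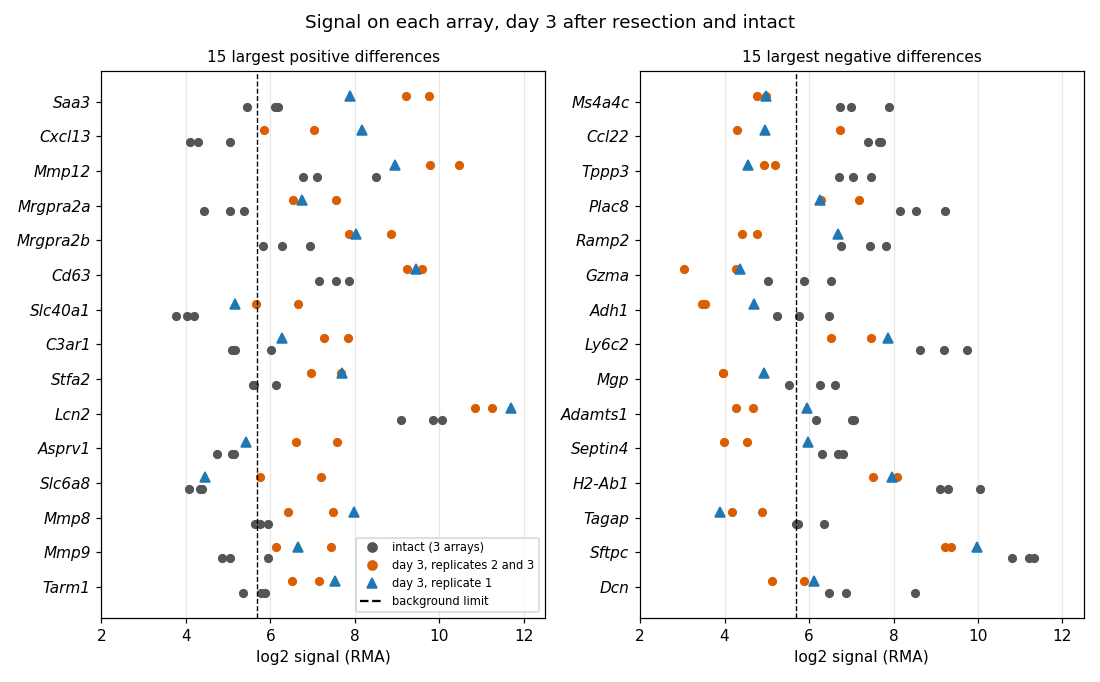
Log2 signal of the 15 genes with the largest positive and the 15 with the largest negative difference, among genes whose groups did not overlap and whose higher mean was above background; each point is 1 array. Saa3 sits at 7.88 to 9.75 at day 3 against 5.44 to 6.18 in intact mice, and day 3 replicate 1 lies nearest the intact arrays for Saa3, Slc6a8, Ramp2 and Adamts1 but not for Cd63 or Lcn2.

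The largest positive difference belonged to Saa3, the serum amyloid that macrophages and epithelium make in the acute phase. It read 5.44, 6.18 and 6.11 on the intact arrays and 7.88, 9.75 and 9.21 at day 3, 8.23-fold higher (3.04 ± 0.66, adjusted p = 0.314). The groups did not overlap, and the lowest day 3 value was again that of replicate 1. Lcn2, a lipocalin that binds bacterial siderophores and is made by neutrophils and inflamed epithelium, read 9.85, 9.10 and 10.07 against 11.70, 10.84 and 11.24, a difference of 1.59 ± 0.35. Orm1, an acid glycoprotein of the acute phase, was dim in both groups, at 2.36, 2.63 and 2.33 against 3.27, 3.34 and 3.37. Of 18 acute phase genes measured, 12 were higher and 6 lower. On the higher side 6 had groups apart, against 7.19% of all probe sets, and 4 had an unadjusted p under 0.05, against 1.96%. The median was 0.06, or 0.31 without intact replicate 3 and -0.017 without intact replicate 1, and the classical serum proteins of the liver, such as Crp and Fgb, stood at the level of background. These were picked out after their values were seen: Crp differed by -0.06 and Fgb by -0.04.

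Genes of neutrophils were higher on all 3 day 3 arrays. Of 25 neutrophil markers, 20 were higher and 5 lower. All 12 with an unadjusted p under 0.05 were higher, against 1.96% of all probe sets. Groups were apart on the higher side for 11, against 7.19%. The median was 0.49, against 0.0015 over all probe sets. Mrgpra2b, a MAS-related receptor of neutrophils, read 6.95, 6.28 and 5.82 on the intact arrays and 8.02, 7.87 and 8.86 at day 3 (1.90 ± 0.42). Cxcr2, the receptor that brings neutrophils out of the marrow, differed by 1.35 ± 0.31, and Mmp9, a gelatinase of their granules, by 1.46 ± 0.34. Mmp8, the neutrophil collagenase, read 5.76, 5.63 and 5.95 against 7.99, 6.43 and 7.48. The 5 lower members, named after their values were seen, included Camp (-0.81), Ngp (-0.64) and Ltf (-0.30), which encode granule proteins made early, in the marrow. The summed neutrophil signal ran from 5720.26 to 7422.67 on the intact arrays and from 8998.49 to 14691.1 at day 3, so the groups did not overlap. The part of neutrophils in the values of Saa3 and Lcn2 was not tested. By array the list median stood at 0.74, 0.35 and 1.31 above the intact mean. Without day 3 replicate 1 the median was 0.86.

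Several of the largest positive differences were in genes that macrophages can make. They were taken by size and do not stand for a list: of 20 genes of alternative activation 9 were higher and 11 lower. Cd63, a tetraspanin of lysosomes and granules, read 7.56, 7.86 and 7.16 on the intact arrays and 9.45, 9.60 and 9.23 at day 3 (1.90 ± 0.26, adjusted p = 0.0674). All 3 day 3 arrays lay well above the intact arrays, replicate 1 as far as the others. Mmp12, the macrophage elastase, read 8.50, 7.12 and 6.77 against 8.95, 10.47 and 9.79, and Slc40a1, the iron exporter ferroportin, 4.18, 3.77 and 4.03 against 5.17, 5.66 and 6.66. The groups were apart for both, though for Mmp12 by little. C3ar1, the receptor for complement fragment C3a, read 5.08, 5.17 and 6.02 against 6.27, 7.85 and 7.27. Cxcl13, the chemokine that draws B cells, read 4.28, 4.09 and 5.03 against 8.18, 5.86 and 7.03, and here replicate 1 was the highest array. Pla2g7, which hydrolyses platelet-activating factor, differed by 1.34 ± 0.40, and Myo5a, a motor that carries vesicles, by 1.00 ± 0.22.

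The lists to which these genes belong had medians near 0 or rested on single arrays. Of 33 lysosome and tetraspanin genes, 21 were higher and 12 lower with a median of 0.07. At an unadjusted p under 0.05 there were 3, all higher, against 1.96% of all probe sets. The 3 were Cd63, Cd37, a tetraspanin of leukocytes (0.64 ± 0.20), and Gpnmb, a glycoprotein of phagocytes loaded with lipid (1.08 ± 0.35). Without day 3 replicate 1 the median was 0.21 and 30 members were higher, whereas without day 3 replicate 2 or 3 it was 0.0050 or 0.011 with 17 higher. Of 25 iron and heme genes 16 were higher (median 0.08, with -0.03 to 0.15 on leaving out single compared arrays), of 19 complement genes 11 (median 0.27, and 0.019 without day 3 replicate 2), and of 27 scavenger and pattern receptors 15 (median 0.05, with -0.0062 to 0.18). Matrix proteases were mixed: beside Mmp12, Mmp8 and Mmp9, the aggrecanase-type Adamts1 was lower by 1.78 on the log2 scale (SE 0.59).

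Eosinophil genes were mixed. Of 13 markers 7 were higher and 6 lower, and 6 had a group mean above background. Groups were apart on the higher side for 3, against 7.19% of all probe sets, and on the lower side for 0, against 6.68%. The median was 0.09, or -0.14 without intact replicate 1 and -0.12 without day 3 replicate 3. Il5ra, the interleukin 5 receptor chain, read 2.47, 2.51 and 2.62 on the intact arrays and 3.92, 3.92 and 4.47 at day 3 (1.57 ± 0.28). Ccr3, the eotaxin receptor, read 3.60, 3.01 and 3.48 against 4.98, 5.28 and 6.26 (2.14 ± 0.48). All 3 day 3 arrays lay above all intact arrays for both genes, with both group means below background. Prg2, the major basic protein, read 6.53, 7.21 and 8.82 against 4.75, 6.24 and 6.94, and Epx, the eosinophil peroxidase, 3.78, 4.67 and 6.28 against 2.86, 3.19 and 4.10. The groups overlapped for these granule genes, and the intact arrays varied among themselves by more than 2 log2 units. The summed signal of 13 eosinophil markers was 797.355 to 1494.94 in intact mice and 766.832 to 1201.03 at day 3, and the part of eosinophils in these values was not tested. Mcpt8, a protease of basophils, read 3.65, 4.02 and 7.08 against 2.30, 2.21 and 2.33.

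Connective tissue, vessel and epithelial genes lay on the lower side. Dpt, the matrix protein dermatopontin, read 5.17, 5.72 and 6.13 on the intact arrays and 3.93, 3.39 and 3.01 at day 3 (-2.23 ± 0.29, adjusted p = 0.0545). Mxra8, which stands in the membrane of stromal cells, differed by -1.67 ± 0.25, Ephb4, an ephrin receptor of veins, by -1.42 ± 0.25, and Tie1, an endothelial receptor kinase, by -1.32 ± 0.27. For all 4 genes every day 3 array lay below every intact array, and both group means of each were below background. Tppp3, a tubulin-binding protein of ciliated and stromal cells, read 7.03, 7.47 and 6.71 against 4.56, 5.18 and 4.94 (-2.18 ± 0.33). Sftpd, the collectin of the air space, read 4.24, 4.38 and 4.94 against 3.67, 3.16 and 3.46, all below background. Scgb1a1 was 9.40, 8.65 and 9.55 at day 3 (-1.48 ± 0.36).

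As lists, these cell types had fewer higher than lower members throughout. Over all probe sets 2.5% were lower at an unadjusted p under 0.05 and 6.68% had groups apart on the lower side. Of 21 fibroblast and smooth muscle markers 20 were lower, 11 with an unadjusted p under 0.05 and 14 with groups apart, and the median was -1.05. Of 19 endothelial markers 18 were lower, 9 with an unadjusted p under 0.05 and 7 apart (median -1.16, or -0.76 without day 3 replicate 2). Type 2 alveolar cells had 14 of 16 markers lower (median -0.71), airway epithelium 15 of 16 (-0.42) and type 1 cells 9 of 11 (-0.42). Of the 2 type 1 markers that were higher, Pdpn, podoplanin, is also made by activated macrophages and read 5.48, 5.72 and 5.32 against 5.53, 7.10 and 6.35.

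On day 3 replicate 1 these tissue lists lay nearer to the intact level than on the other day 3 arrays, except for airway epithelium. Its medians were inside the intact range for endothelium and type 1 cells and below every intact array for fibroblasts, type 2 cells and airway. Its list median lay at -0.08 from the intact mean for endothelium, where the other day 3 arrays stood at -1.63 and -1.43. For fibroblasts it was -0.36 against -1.42 and -1.27, for type 2 cells -0.15 against -1.10 and -1.01, and for type 1 cells 0.18 against -0.76 and -0.62. For airway epithelium it was -0.62, between -0.71 and -0.34 on the other arrays. Summed endothelial signal ran from 1466.9 to 2822.21 in intact mice and from 631.279 to 2471.98 at day 3, and that of fibroblast markers from 1521.24 to 2145.87 and from 594.406 to 1334.33. Without this array the medians were -1.55 for endothelium, -1.29 for fibroblasts, -1.09 for type 2 cells, -0.69 for type 1 cells and -0.62 for airway. The airway median was -0.23 without intact replicate 3, and that of type 1 cells -0.19 without day 3 replicate 2. The part of the weak separation of day 3 replicate 1 in these values was not tested.

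**Figure D2:**
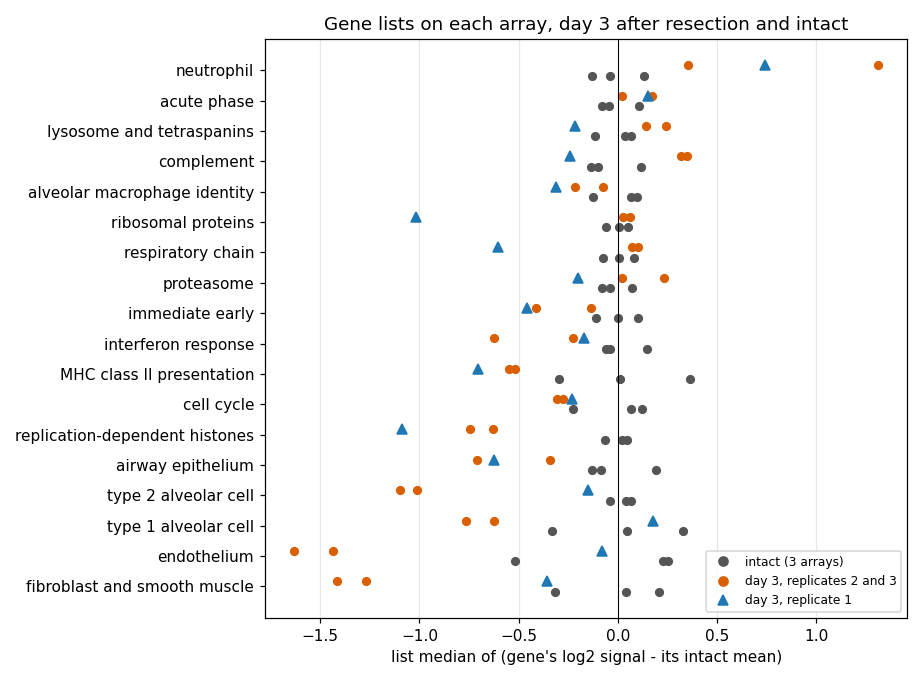
Median, over the genes of a list, of each gene's log2 signal minus its intact mean, for 18 of the 52 lists; each point is 1 array. Day 3 replicate 1 (triangles) sits at -0.08 for endothelium, where the other day 3 arrays sit at -1.63 and -1.43, and at -1.02 for ribosomal proteins, where they sit at 0.06 and 0.02, while the 3 day 3 arrays all lie below the intact arrays for the histones.

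Most lymphocyte and dendritic cell markers and some monocyte genes were lower as well, while monocyte markers as a list were balanced. Ly6c2, which marks inflammatory monocytes, read 8.63, 9.20 and 9.74 on the intact arrays and 7.87, 6.52 and 7.46 at day 3 (-1.91 ± 0.44). Ms4a4c, another monocyte membrane protein, read 6.73, 7.00 and 7.88 against 4.97, 4.76 and 4.97, and Plac8 8.16, 8.54 and 9.21 against 6.25, 6.29 and 7.18. These genes separated the groups completely, with day 3 arrays close to each other for Ms4a4c. The granzymes of cytotoxic lymphocytes, Gzma and Gzmb, differed by -1.93 ± 0.44 and -1.27 ± 0.29. Ccl5, which draws T cells, read 5.53, 5.34 and 5.64 against 4.12, 3.998 and 4.23, all below background. Of 19 T and NK cell markers 13 were lower, 6 of them with an unadjusted p under 0.05, against 2.5% of all probe sets. Only 3 of the 19 had a group mean above background. The list median was -0.17. It was 0.15 over the members left when dim genes were dropped. Among the 6 higher members Il7r, the interleukin 7 receptor, read 6.14, 5.01 and 5.32 against 6.27, 7.05 and 6.70. Of 17 dendritic cell markers 16 were lower, led by Ccl22, a chemokine for CCR4, at 7.39, 7.72 and 7.66 against 4.95, 4.30 and 6.73. Only 4 of the 17 had a group mean above background. The 21 monocyte and interstitial macrophage markers had 10 higher and 11 lower, with Mmp12 and Apoe in the same list as Ly6c2 and Ms4a4c, and a median of -0.0043. This median was 0.37 without intact replicate 3 and -0.26 without day 3 replicate 2. The list's summed signal was 3375.67 to 4052.91 in intact mice and 2758.43 to 8413.23 at day 3, with day 3 replicate 1 the lowest. The median of the dendritic list was -0.25, and -0.45 without intact replicate 2.

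Antigen presentation and interferon genes were lower together. H2-Ab1, a chain of the class II molecule, read 10.04, 9.09 and 9.29 on the intact arrays and 7.95, 7.52 and 8.08 at day 3 (-1.62 ± 0.63). Of 13 genes of class II presentation 12 were lower, and the median was -0.58. An unadjusted p under 0.05 on the lower side was reached by 6, against 2.5% of all probe sets. All 15 genes of class I presentation were lower, none with an unadjusted p under 0.05. Their median was -0.29, and -0.16 without day 3 replicate 1. Of 32 interferon response genes 29 were lower and 8 of these had an unadjusted p under 0.05, against 2.5% of all probe sets. Only 15 of the 32 had a group mean above background. Cxcl10, a chemokine induced by interferon, read 8.84, 8.19 and 8.76 against 7.83, 6.64 and 7.00, and Igtp, a GTPase of resistance to intracellular microbes, 6.05, 6.51 and 7.06 against 5.69, 4.85 and 5.32. Dendritic cells, which carry much class II, moved with these lists: their summed marker signal was 861.035 to 1022.07 in intact mice and 529.152 to 711.631 at day 3. Their part in the class II values was not tested.

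Immediate early genes were lower in 23 of 26 cases, with a median of -0.31. Of the lower ones 5 had an unadjusted p under 0.05, against 2.5% of all probe sets. Nr4a1, an orphan nuclear receptor induced within minutes of a stimulus, read 9.38, 9.44 and 9.31 on the intact arrays and 8.48, 8.64 and 8.86 at day 3 (-0.72 ± 0.17). Myc differed by -0.92 ± 0.29. Cytokine genes were lower in 20 of 29 cases, with a median of -0.26 that was -0.11 without intact replicate 1. Tnf read 11.02, 10.92 and 10.71 against 10.18, 9.58 and 10.65, and Lif, a cytokine of the interleukin 6 family, 6.15, 6.51 and 6.39 against 4.26, 5.60 and 5.58. Among 28 growth factors of liver regeneration 17 were lower, with Tgfb2 at -0.64 ± 0.16, while Igf1 was higher by 1.07 ± 0.41 with overlapping groups. Of 20 glucocorticoid-induced genes 10 were higher and 10 lower. Among them Fkbp5, the co-chaperone of the receptor, read 6.29, 6.75 and 6.97 against 8.23, 7.43 and 8.14 (1.26 ± 0.34).

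The replication-dependent histone genes had groups apart on the lower side in 82% of cases, the largest share among the 52 lists. These genes supply the core and linker histones that package new DNA in S phase, and their messages end in a stem-loop in place of a poly(A) tail. H4c11 read 8.37, 8.63 and 8.65 on the intact arrays and 7.68, 7.64 and 7.45 at day 3 (-0.96 ± 0.15, adjusted p = 0.139). H4c12 read 7.26, 7.30 and 7.43 against 5.73, 6.41 and 6.19 (-1.22 ± 0.21), and H2ac10 7.48, 7.56 and 7.51 against 6.22, 6.68 and 6.65 (-0.999 ± 0.19). The intact arrays lay close together for these 3 genes and every day 3 array lay below them.

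Of the 50 histone genes measured, 49 were lower at day 3, and 33 had a group mean above background. An unadjusted p under 0.05 on the lower side was reached by 37, against 2.5% of all probe sets, and 41 had all day 3 arrays below all intact arrays, against 6.68% of all probe sets. None passed after adjustment over all probe sets. The list median was -0.86, with array medians of -1.09, -0.63 and -0.75 at day 3 and between -0.06 and 0.05 on the intact arrays. Without day 3 replicate 1 it was -0.66. By type, 11 of 11 H4 genes were lower (median -0.96), 10 of 10 H3 genes (-0.94), 12 of 12 H2A genes (-0.85), 13 of 13 H2B genes (-0.60) and 3 of 4 H1 genes (-0.40). The exception was H1f2, at 6.10, 6.79 and 6.91 against 6.41, 7.25 and 7.26. The copies are near-identical, so signal can be shared between them and they are not independent: H3c14 and H3c15 had the same value on every array, which leaves 49 distinct profiles.

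Promoter sequences of this family are shown because its members moved together. RefSeq promoters (GRCm38.p6) were matched by gene identifier for 45 of the 50 histone genes, with 250 bases before the annotated start searched on both strands. The motif CCAAT occurred in 36 of the 45 (80%) and in 33.8% of all 32851 promoters, and TATAAA in 22 (48.9%) against 12.4%. Both occurred in 18 (40%) against 4.4%. CCAAT was present in 80.6% of the 36 promoters of genes with an unadjusted p under 0.05 and in 77.8% of the other 9, and TATAAA in 44.4% and 66.7%. The 150 bases before the start are printed for the gene of smallest p in each core histone type that holds either motif in that stretch, 5′ to 3′, with the motif on either strand in capitals.
H2ac10 (chr13:23533725-23533874, + strand): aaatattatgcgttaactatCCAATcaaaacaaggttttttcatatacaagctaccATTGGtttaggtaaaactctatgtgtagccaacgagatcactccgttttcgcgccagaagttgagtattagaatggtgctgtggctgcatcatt
H2bc15 (chr13:21753926-21754075, + strand): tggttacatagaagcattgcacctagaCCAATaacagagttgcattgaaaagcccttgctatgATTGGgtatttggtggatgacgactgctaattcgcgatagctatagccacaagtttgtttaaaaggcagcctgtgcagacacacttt
H3c13 (chr3:96268504-96268653, + strand): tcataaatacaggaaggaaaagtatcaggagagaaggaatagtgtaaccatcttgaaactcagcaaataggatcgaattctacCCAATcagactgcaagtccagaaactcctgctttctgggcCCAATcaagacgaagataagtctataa
H4c12 (chr13:21750554-21750703, - strand): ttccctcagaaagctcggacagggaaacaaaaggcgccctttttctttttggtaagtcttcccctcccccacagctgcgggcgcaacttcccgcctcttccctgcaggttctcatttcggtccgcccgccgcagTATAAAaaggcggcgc
A match describes these letters only. The first 3 stretches hold 2 copies of CCAAT each, and that of H4c12 holds TATAAA with its first base 16 bases before the annotated start.

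Other genes of dividing cells were lower to a smaller extent. Of 35 cell cycle genes 31 were lower, 4 with an unadjusted p under 0.05 (0 higher), and the median was -0.37. Over all probe sets 2.5% were lower at that p. Only 3 of the 35 had a group mean above background. Ube2c, the mitotic ubiquitin-conjugating enzyme, read 5.45, 5.15 and 3.92 on the intact arrays and 3.16, 3.63 and 3.61 at day 3, Ccnb2, a mitotic cyclin, 5.69, 5.24 and 5.18 against 4.48, 5.05 and 4.91, and Aurkb, a mitotic kinase, 4.19, 4.82 and 4.08 against 3.81, 3.68 and 3.88. Day 3 arrays were below all intact arrays for these 3 genes, with intact replicate 3 the nearest for Ube2c. Of 24 DNA replication genes 18 were lower (median -0.20, or -0.31 without intact replicate 3 and -0.13 without intact replicate 1), with Mcm6, a subunit of the replicative helicase, at -0.74 ± 0.34.

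Genes of adhesion, lipid mediators and vesicle traffic were mixed. Of 22 integrin and adhesion genes 16 were lower, 7 with an unadjusted p under 0.05, against 2.5% of all probe sets. Itga6, a laminin receptor chain, read 5.41, 6.15 and 6.49 on the intact arrays and 5.67, 3.59 and 4.59 at day 3, overlapping through replicate 1. Among 21 eicosanoid genes, Ptgr2, which reduces 15-keto prostaglandins, read 3.84, 3.69 and 3.62 against 4.41, 4.28 and 4.60 (0.71 ± 0.16), all below background. Hpgds, the prostaglandin D synthase of hematopoietic cells, differed by 0.81 ± 0.29. Ptgs2, the inducible cyclooxygenase, went the other way at 8.26, 7.64 and 8.22 against 6.72, 7.02 and 7.15. Of 20 myosins and vesicle motors 14 were higher, with 6 apart on the higher side, against 7.19% of all probe sets. The list median was 0.04, or 0.066 to 0.12 without intact replicate 1 or 2 or day 3 replicate 1 or 2. Myo1g, a class I myosin of leukocytes, was lower, at 8.30, 8.16 and 8.19 against 7.36, 7.49 and 8.02. Tlr8, the endosomal receptor for RNA, read 8.07, 7.64 and 7.65 against 8.33, 8.27 and 8.37, and Fcgr4, an activating Fc receptor, 7.52, 7.54 and 7.23 against 7.63, 8.27 and 8.14. Both had groups apart.

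Several housekeeping lists had medians near 0 or rested on 1 array. Ribosomal protein genes were lower in 35 of 40 cases with a median of -0.30, but day 3 replicate 1 stood at -1.02 and the other day 3 arrays at 0.06 and 0.02, and without it the median was 0.025. Without day 3 replicate 2 or 3 it was -0.49 or -0.48. The respiratory chain had a median of -0.13 over 42 genes, 0.088 without day 3 replicate 1, -0.085 without intact replicate 1 and -0.24 without day 3 replicate 3. Of 25 proteasome genes 16 were higher, and the median of 0.04 ran from -0.12 to 0.14 on leaving out single compared arrays. Autophagy genes had a median of -0.05 that was 0.14 without day 3 replicate 1 and -0.17 without day 3 replicate 2. Heat shock and chaperone genes were lower in 12 of 14 cases, led by Hspb1, a small chaperone common in muscle and epithelium, at 4.37, 4.85 and 5.28 against 3.29, 2.97 and 3.20. These Hspb1 values all lay below background.

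Leaving out the 3 weakly separating arrays changed the number of calls. This fit, with 3 intact and 2 day 3 arrays, called 252 probe sets at an adjusted p under 0.05, 69 higher (0.311%) and 183 lower (0.824%). All 252 had the same direction in the fit of 12 arrays, 104 had groups apart with all 3 day 3 arrays, and 156 had a mean above background. On day 3 replicate 1 the value was the nearest of the day 3 arrays to the intact mean for 222 of them, and it lay on the same side of that mean as the other day 3 arrays for 149. The 252 were picked on the intact arrays and day 3 replicates 2 and 3, which both fits hold. Their shared direction is therefore no independent support, and the choice itself favours genes for which replicate 1 lies nearest the intact mean. Of the 90 structural lung cell markers measured, 32 were called lower.

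**Figure D3:**
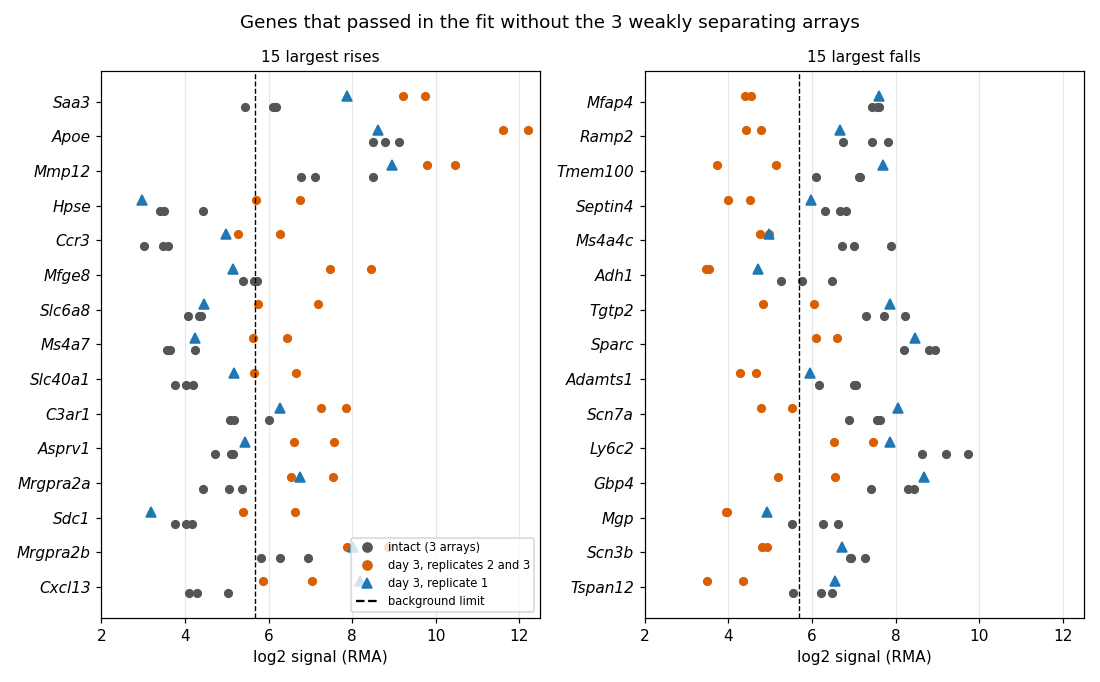
Log2 signal on each array of the 15 genes with the largest rises and the 15 with the largest falls that passed in the fit without the 3 weakly separating arrays. Apoe sits at 12.22 and 11.61 on day 3 replicates 2 and 3 and at 8.61 on replicate 1 (triangle), within the intact range, and Mfap4 at 4.54 and 4.41 against 7.59.

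In that fit the genes that rose included several of lipid and debris handling. They do not stand for a list. Of 30 lipid and cholesterol handling genes 16 were higher and 14 lower there, with a median of 0.036 and 1 called higher. Apoe, which carries cholesterol out of macrophages, rose by 3.11, from 8.50, 8.78 and 9.13 on the intact arrays to 12.22 and 11.61 (adjusted p = 0.000208, with 0.000208 to 1 over the alternatives). Day 3 replicate 1 read 8.61, inside the intact range. Mfge8, which bridges dying cells to phagocytes, rose from 5.39, 5.66 and 5.72 to 8.45 and 7.48, with 5.15 on replicate 1. Gpnmb rose from 9.26, 9.37 and 8.28 to 10.55 and 10.19, with 9.39 on replicate 1, and Fcgr2b, the inhibitory Fc receptor, from 8.38, 8.11 and 8.16 to 9.94 and 9.29, with 8.27 on replicate 1. For these 4 genes day 3 replicate 1 lay at or near the intact level. Hpse, which cleaves heparan sulfate, read 3.40, 3.50 and 4.43 against 6.74 and 5.70, with 2.97 on replicate 1, and Sdc1, the heparan sulfate proteoglycan syndecan 1, 3.77, 4.16 and 4.03 against 6.63 and 5.39, with 3.19. Ms4a7, a membrane protein of tissue macrophages, read 4.24, 3.56 and 3.65 against 6.44 and 5.62, with 4.24 on replicate 1. Trem2, the lipid receptor of such macrophages, picked out after its values were seen, averaged 6.11 in intact mice and read 8.21 and 7.24 on those 2 arrays and 4.45 on replicate 1, and it did not pass.

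Genes that passed there and whose groups were also apart with all 3 day 3 arrays included Saa3 (adjusted p = 0.00103, with 0.00097 to 1 over the alternatives), Cd63 (0.00297, with 0.00097 to 0.441), Slc40a1, C3ar1, Cxcl13, Ccr3, Il5ra, Myo5a, Lcn2, Mrgpra2b and Stfa2. The fit of 12 arrays and the reduced fit gave differences of 3.04 and 3.58 for Saa3, 1.90 and 1.88 for Cd63 1.71 and 2.13 for C3ar1, 2.27 and 2.67 for Mmp12, 2.56 and 1.98 for Cxcl13, 1.59 and 1.37 for Lcn2 and -1.62 and -1.67 for H2-Ab1. Without these arrays the list medians were -0.53 for class II presentation, -0.40 for interferon response, -0.30 for immediate early genes, -0.27 for cytokines, -0.20 for T and NK cells and -0.23 for dendritic cells. On the lower side the largest fall was that of Mfap4, an elastic fibre protein, by 3.06, from 7.60, 7.43 and 7.55 to 4.54 and 4.41, with 7.59 on replicate 1. Tmem100 and Scn7a, of vessel wall and stroma, read 7.69 and 8.06 on replicate 1, above all intact arrays, and 3.73 and 5.15, and 4.77 and 5.52, on the others. Gbp4, a guanylate-binding protein induced by interferon-γ, read 7.42, 8.45 and 8.31 in intact mice, 8.69 on replicate 1 and 5.18 and 6.56 on the others. Of the 50 histones 48 were lower and 2 higher in this fit. It called 10 of them lower and 0 higher, where 0.824% of all probe sets were called lower. Leaving out day 3 replicate 1 alone gave 5 calls.

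The values at day 3 can be set beside those of the other days, which share the intact arrays with it. Saa3 differed from intact by 2.98 at day 1, 3.04 at day 3 and 1.66 at day 7, and Lcn2 by 1.41, 1.59 and 1.34. Col3a1 differed by -1.77, -2.37 and -2.10, Dpt by -1.66, -2.23 and -2.23, and Ly6c2 by -1.92, -1.91 and -1.98. Other genes were highest at day 3 or changed sign between days. Cd63 differed by 0.27, 1.90 and 0.63, Mmp12 by -1.27, 2.27 and 0.94, Myo5a by -0.25, 1.00 and 0.26, and Apoe by 0.47, 2.01 and 0.32. Il5ra stood at -0.11, 1.57 and 1.24 and Ccr3 at -0.30, 2.14 and 2.71, with the largest means at day 3 for Il5ra and at day 7 for Ccr3. Il5ra lay below background in all groups, and Ccr3 averaged 5.51 at day 3 and 6.07 at day 7.

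**Figure D4:**
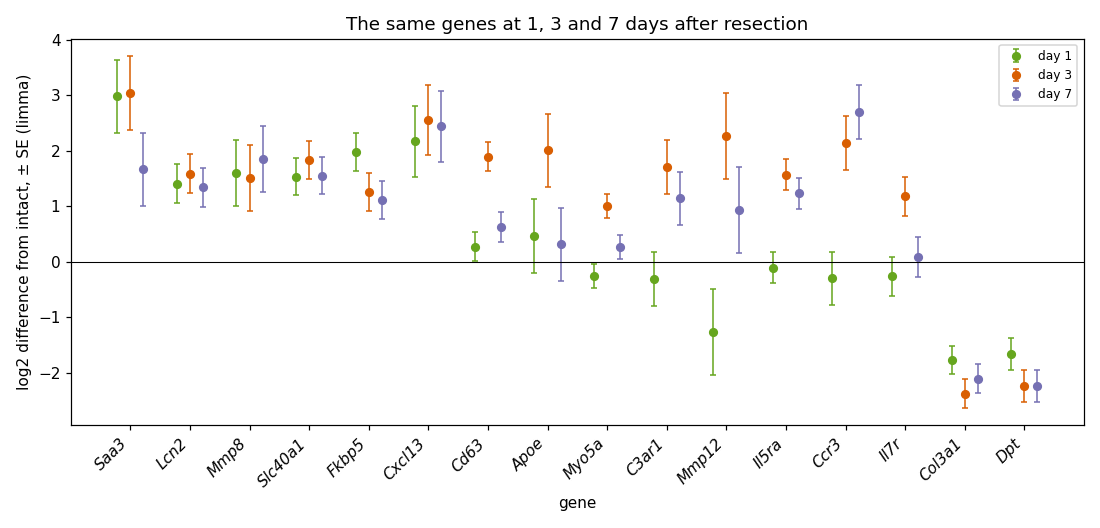
Log2 difference from intact at 1, 3 and 7 days after resection, with the SE from limma (n = 3 per group), for 16 genes; all days share the 3 intact arrays. Cd63 stands at 1.90 at day 3 and at 0.27 and 0.63 on the other days, whereas Lcn2 lies between 1.34 and 1.59 on all of them.

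Direct contrasts between days called 0 of 22206 probe sets (0%) for day 3 against day 1 and 0 (0%) for day 3 against day 7, with smallest adjusted p of 0.242 and 0.114. At an unadjusted p under 0.05 there were 2132 and 1138. Cd63 was higher at day 3 than at day 1 by 1.62 (unadjusted p = 4.26e-05) and higher than at day 7 by 1.27 (0.000386). The difference between day 3 and day 1 was 1.68 for Il5ra (5.66e-05), 1.26 for Myo5a (7.17e-05) and 3.54 for Mmp12 (0.000586). Against day 7 that of Mmp12 was 1.33 (0.109). None of these passed adjustment.

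The histones were lowest at day 3. Their median difference from intact was -0.52 at day 1, -0.86 at day 3 and 0.086 at day 7, and for 43 of 50 genes the day 3 mean was the lowest of the 4 groups. In the direct contrast 47 of 50 lay below day 7, 38 with an unadjusted p under 0.05, where 2.03% of all probe sets were lower at that level. Against day 1 the number was 12, where 3.28% were. H4c11 differed from day 7 by -1.02 (adjusted p = 0.114) and from day 1 by -0.67. Cell cycle genes ran the same way, with medians of -0.38, -0.37 and 0.17 at the 3 times, though day 1 was as low as day 3. By contrast the fibroblast medians were -1.23, -1.05 and -0.9996 and the neutrophil medians 0.89, 0.49 and 1.03.

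**Figure D5:**
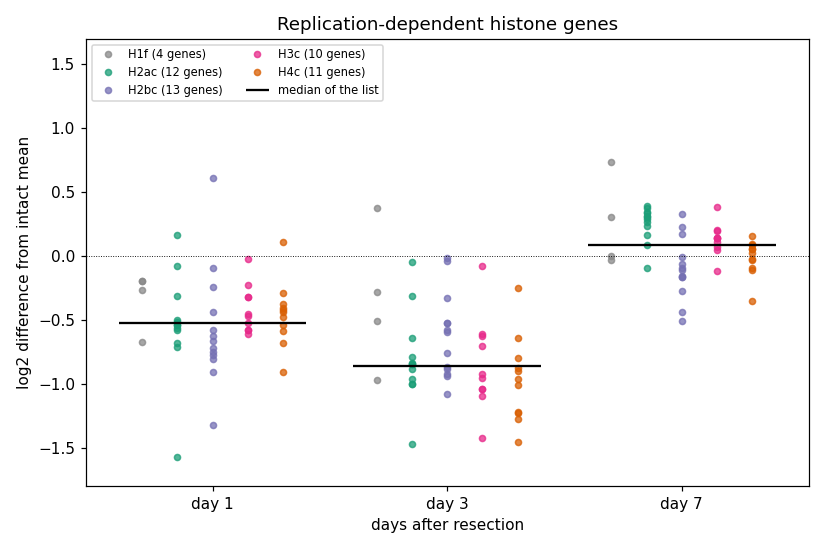
Log2 difference from the intact mean of each of 50 replication-dependent histone genes at 1, 3 and 7 days after resection, by histone type; points are genes and bars are medians over the 50. The medians are -0.52, -0.86 and 0.086, and 49 of 50 points lie below 0 at day 3.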

How the data were processed

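RNA of alveolar macrophages was hybridised to Clariom S mouse arrays. Each deposited value is a log2 signal of 1 probe set. The authors used RMA and the Transcriptome Analysis Console, per the submitters' processing notes, and no further normalization was applied here. Versions and the genome build are not given in the sources used here.

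limma 3.58.1 (R 4.3.3) fitted 1 linear model over all 12 arrays with the group as the only term and default empirical Bayes moderation. Simulated data used to check it gave a probe set the same spread on all arrays. The check therefore does not cover the unequal spread of the day 3 and intact groups. Two-sided p-values were adjusted by Benjamini-Hochberg over the 22206 probe sets (threshold 0.05). Pooling the 4 groups lets the spread of all arrays set each SE.

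Members and lists were chosen with earlier results of these data known. Of 1245 entries in 52 lists, 1144 were measured, matched by symbol or a unique RefSeq synonym. A gene with several probe sets is given by that of highest mean. Named genes are those past the threshold, the 15 largest differences each way with groups apart and a mean above background (in the fit of 12 arrays, and among calls without the weakly separating arrays), the 4 smallest p of each list, and 17 fixed genes. Predicted genes, chemosensory receptors, small RNAs and antigen receptor segments were left out. Arrays were called weakly separating below 0.84 in exon to intron separation. Alternatives covered moderation, arrays, filter, normalization, weights, blocks and threshold. The number of arrays limits precision.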

Additional observations from a re-analysis of the deposited data

Results flagged for a closer look

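Labelling control probe sets were not tested for a difference, and dap served as a block in an alternative fit. Among the compared arrays they carried signal on day 3 replicate 1 only. On day 3 replicate 1 the labelling control dap read 6.88, phe 4.22 and thr 3.64 (log2), while the highest intact arrays read 2.40, 2.42 and 2.41. Outside this comparison, dap also read 7.77 on day 7 replicate 2 and 6.47 on day 7 replicate 3. Whether this bears on the values of day 3 replicate 1 was not tested.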

How the results depend on the processing

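The number of probe sets past the threshold was 1 with robust moderation, median centring or the labelling control as a block. It was 4 with an intensity trend, 4 after quantile normalization, 2 with 1 probe set per gene, 5 at an adjusted p of 0.10, and 0 with only the compared groups or with dim probe sets left out. Array weights gave 298 (102 higher, 196 lower) and leaving out the 3 weakly separating arrays, a limit chosen with the values known, 252 (69 higher, 183 lower), with 171 shared, 57.4% of the first and 67.9% of the second. Leaving out single arrays gave 0 to 7: 0 on leaving out replicate 2 or 3 of either compared group, 2 when replicate 1 of the intact group was dropped, 5 when that of day 3 was, and 7 for replicate 2 of day 1. The cause was not tested.

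With the replicate number as a block the count was 0, and Col3a1 had an adjusted p of 0.081. Deviations of same-numbered arrays correlated at -0.18, -0.06 and -0.10, and those of other pairs at -0.16 to 0.19. With 3 arrays per group, whose deviations sum to 0, these values cannot decide whether the numbers pair the samples.

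Over 56 genes and up to 23 alternatives, 1180 values kept direction and side of the threshold, 93 came to pass, 6 ceased to pass (all Col3a1) and 1 turned sign: Chil3 was -0.0135 without intact replicate 2 and up to 0.31 on leaving out other arrays, against 0.15 with all. Of the list medians 1175 stayed within their spread and 21 moved.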
